A study of Mus musculus with 16 samples.

Results

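The transcripts of the proteasome and of the immunoproteasome were measured in B-cell precursors sorted from BALB/c mice. Members were the probes of genes named Psm with a letter from a to g and a number. The gene name column of the scanner files holds accessions, and 0 of its 41174 probes carry such a name directly, so each probe was first named through its RefSeq accession or its description and the pattern was then applied to the symbol. This gave 62 probes of 45 genes, among 16787 named genes of the array, and 1 probe per gene, the brightest, was used. The 5 genes Psmb8, Psmb9, Psmb10, Psme1 and Psme2 were set against the other 40, which are called constitutive here. Of the 45 genes, 44 were tested. The thymus beta subunit Psmb11 was not, being well above background on 1 array of BM Fr.A, 1 of BM Fr.B/C and 0 of the fetal liver groups. The other 44 were well above background on all 16 arrays, so none entered through its high group alone. The symbols Psma8, Psmd1 and Psmg4 were matched to no probe and are not analysed here.

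The groups were FL Fr.A and FL Fr.B/C from fetal liver at gestation day 16, and BM Fr.A and BM Fr.B/C from the bone marrow of adult females, with 4 arrays each. In the Hardy scheme Fr.A holds pre-pro-B cells and Fr.B/C the pro-B cells that follow. A fetal liver sort pooled on average 8 embryos of a dam and a bone marrow sort pooled 16 mice, and each sort gave both fractions. Every 2-colour array set the amplified RNA of 1 sample against a common reference of RNA from 6 cell lines, with the sample in Cy5 on replicates 1 and 3 and in Cy3 on replicates 2 and 4. Values are log2 ratios of sample over reference, so a level compares 1 transcript between groups and not different transcripts with each other. The median sample signal of an array was 71.2 to 162 intensity units, and 52.9% to 68.3% of its probes were well above background. In these pooled sorts, fewer cells of a type and less RNA per cell cannot be told apart.

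The proteasome is the protease that degrades ubiquitin-tagged proteins. Its barrel-shaped core has outer rings of alpha subunits and inner rings of beta subunits, of which Psmb5, Psmb6 and Psmb7 carry the active sites, and its regulatory particle has a ring of ATPases (the Psmc genes) and non-ATPase subunits (the Psmd genes). Interferon and a lymphoid setting induce Psmb8, Psmb9 and Psmb10, which replace Psmb5, Psmb6 and Psmb7 in newly built cores, and the activator subunits Psme1 and Psme2. Such immunoproteasomes cut proteins into peptides suited to MHC class I molecules.

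The promoter windows of the 2 members with the largest fetal difference are shown because both genes lie in the MHC region of chromosome 17 and are known interferon targets. They are the 250 bases before the annotated start, from RefSeq on GRCm38.p6, at chr17:34187331-34187580 on the minus strand for Psmb9 and at chr17:34197945-34198194 on the plus strand for Psmb8. Capitals mark a gamma-activated site, the STAT motif TTCNNNGAA, which reads the same on both strands.
Psmb9: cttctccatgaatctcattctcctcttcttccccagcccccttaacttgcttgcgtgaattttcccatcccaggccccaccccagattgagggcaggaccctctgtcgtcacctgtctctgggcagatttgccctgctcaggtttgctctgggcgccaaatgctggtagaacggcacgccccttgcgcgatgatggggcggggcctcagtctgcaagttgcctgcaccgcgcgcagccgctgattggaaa
Psmb8: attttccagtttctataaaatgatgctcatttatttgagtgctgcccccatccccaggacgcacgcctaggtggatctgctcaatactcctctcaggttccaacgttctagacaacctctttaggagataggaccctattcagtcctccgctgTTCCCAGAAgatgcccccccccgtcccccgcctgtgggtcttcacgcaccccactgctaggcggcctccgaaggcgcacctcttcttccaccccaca
The motif stood at positions -97 to -89 from the start of Psmb8. It was found in 7.02% of the 32851 windows of this table, and among the 38 member genes with a window in Psmb8 and Psmg1. The interferon-stimulated response element, GAAA repeated after any 2 bases (2.98% of windows), and the IRF half-site AANNGAAA (21.3% of windows, and overlapping such an element), both searched on both strands, had no match in the windows of these 5 induced members. The Psmb9 window shares 225 bases with that of Tap1, which is transcribed in the opposite direction and encodes a subunit of the peptide transporter.

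Of the 5 immunoproteasome members, 4 had lower transcript levels in fetal than in adult cells at both stages. Psmb9 and Psmb8 were lowest, at 0.284 and 0.356 times the bone marrow level in Fr.A and at 0.260 and 0.315 times in Fr.B/C. Psmb10 fell less, Psme1 less again, and Psme2 did not pass the test. No immunoproteasome member was higher in fetal liver.

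Psmb9, which takes the place of Psmb6, had log2 ratios of -0.64, 0.07, -0.65 and -0.43 in FL Fr.A, against 1.54, 1.30, 1.36 and 1.41 in BM Fr.A. In Fr.B/C its log2 ratios were -0.89, -0.67, -0.89 and -0.54 in FL, against 1.14, 0.91, 1.38 and 1.34 in BM. The highest fetal array lay well below the lowest bone marrow array at each stage, and the spread within FL Fr.A came from its replicate 2. The log2 difference was -1.81 ± 0.14 in Fr.A (limma, SE, n = 4 and 4 arrays, adjusted p = 1.89e-07) and -1.94 ± 0.14 in Fr.B/C (limma, adjusted p = 8.06e-08).

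Psmb8, which takes the place of Psmb5, had log2 ratios of -0.93, -0.68, -0.85 and -0.86 in FL Fr.A, against 0.71, 0.71, 0.62 and 0.60 in BM Fr.A. In Fr.B/C its log2 ratios were -1.42, -1.40, -1.56 and -1.34 in FL, against 0.21, 0.20, 0.33 and 0.20 in BM. The 4 groups did not overlap at all, in the order FL Fr.B/C, FL Fr.A, BM Fr.B/C and BM Fr.A from low to high. The log2 difference between fetal liver and bone marrow was -1.49 ± 0.08 in Fr.A (limma, adjusted p = 1.68e-09) and -1.67 ± 0.08 in Fr.B/C (limma, adjusted p = 2.89e-10). A second probe of Psmb8 gave -1.49 and -1.53.

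Psmb10, which takes the place of Psmb7, had log2 ratios of -0.33, 0.23, -0.03 and 0.08 in FL Fr.A, against 0.54, 0.46, 0.93 and 1.19 in BM Fr.A. In Fr.B/C its log2 ratios were 0.07, 0.22, 0.10 and 0.42 in FL, against 0.69, 0.60, 0.77 and 0.98 in BM. The groups did not overlap, but bone marrow arrays 3 and 4 lay above arrays 1 and 2. The log2 difference was -0.79 ± 0.15 in Fr.A (limma, adjusted p = 0.000727) and -0.55 ± 0.15 in Fr.B/C (limma, adjusted p = 0.0101).

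Psme1, the alpha subunit of the PA28 activator, had log2 ratios of 0.66, 0.62, 0.80 and 0.53 in FL Fr.A, against 1.04, 0.59, 1.43 and 1.05 in BM Fr.A. In Fr.B/C its log2 ratios were 0.66, 0.24, 0.62 and 0.54 in FL, against 0.86, 0.72, 1.13 and 0.66 in BM. The groups overlapped at both stages. The log2 difference was -0.37 ± 0.12 in Fr.A (limma, adjusted p = 0.0252), and the -0.33 ± 0.12 in Fr.B/C was at the threshold (limma, adjusted p = 0.0495). The call of Psme1 was lost under 12 of 31 other settings in Fr.A and under 23 of 31 in Fr.B/C.

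Psme2, its beta subunit, had log2 ratios of 0.20 to 0.70 in FL Fr.A, against 0.36 to 1.07 in BM Fr.A, and of 0.18 to 0.50 in FL Fr.B/C, against 0.39 to 0.88 in BM Fr.B/C. Neither its log2 difference of -0.24 ± 0.15 in Fr.A nor that of -0.22 ± 0.15 in Fr.B/C passed (limma, adjusted p = 0.263 and 0.315). The probes list the accession of the near-identical copy Psme2b, so signal of the 2 genes may be mixed.

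Set against the array, 4 of 5 immunoproteasome members were lower in FL Fr.A, where 17.3% of the 22432 genes or transcripts tested were lower and 29.5% passed in either direction. Likewise 4 of 5 were lower in FL Fr.B/C, where 14.6% of all were lower and 28.5% passed in either direction. The median log2 difference of the 5 was -0.79 in Fr.A, and it was -0.55 in Fr.B/C, beside medians of -0.02 and 0.01 over all genes. Bone marrow arrays were scanned in sessions 1 to 4 and fetal liver arrays in sessions 5 and 6, so tissue and scan session cannot be told apart. Psmb8 and Psmb9 passed at both stages under all 31 other settings tried. With replicates 1 and 2, and 3 and 4, of each group averaged, which leaves 2 values per group, 3 of the 5 passed in Fr.A, but 2 in Fr.B/C, where Psmb10 then had an adjusted p of 0.127 (limma).

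**Figure D1:**
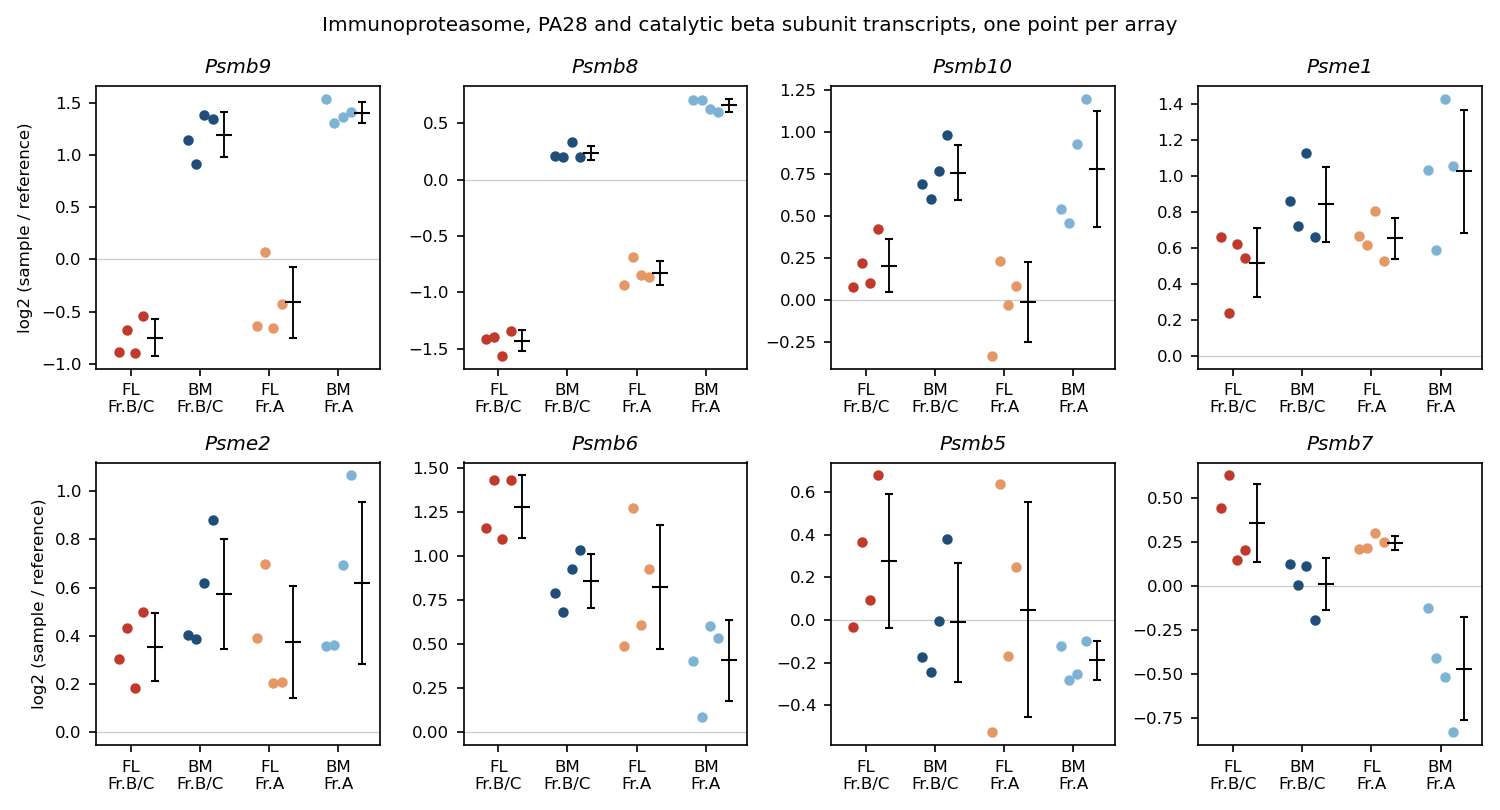
Log2 ratio of sample over reference (vertical axis) for the 5 immunoproteasome members and the 3 catalytic subunits that 3 of them replace, in FL Fr.B/C, BM Fr.B/C, FL Fr.A and BM Fr.A. Each point is 1 array in the order of replicates 1 to 4, and the bar gives the mean ± SD (n = 4). Psmb9 and Psmb8 lie lower on every fetal liver array than on any bone marrow array.

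The constitutive catalytic subunits did not share that direction. Psmb7 had log2 ratios of 0.21, 0.22, 0.30 and 0.25 in FL Fr.A, against -0.12, -0.41, -0.52 and -0.83 in BM Fr.A, a difference of 0.72 ± 0.13 (limma, adjusted p = 0.000724). In Fr.B/C its log2 ratios were 0.44, 0.63, 0.15 and 0.20 in FL, against 0.12, 0.01, 0.12 and -0.19 in BM. That difference of 0.34 ± 0.13 did not pass (limma, adjusted p = 0.065). It passed under 5 of 31 other settings and did not under 26. With the replicate number as a block, 1 of the 5, its adjusted p was 0.0292 (limma), but between the tissues that number joins different animals and pairs no samples.

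Psmb6 had log2 ratios of 0.49, 1.27, 0.61 and 0.92 in FL Fr.A, against 0.41, 0.08, 0.60 and 0.54 in BM Fr.A. In Fr.B/C they were 1.16, 1.43, 1.097 and 1.43 in FL, against 0.79, 0.68, 0.92 and 1.04 in BM. The fetal values were the higher ones, by 0.42 ± 0.15 in Fr.A (limma, adjusted p = 0.0498) and by 0.42 ± 0.15 in Fr.B/C (limma, adjusted p = 0.0482), both at the threshold and lost under 25 and 23 of the 31 other settings.

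Psmb5 had log2 ratios of -0.53, 0.64, -0.17 and 0.25 in FL Fr.A, against -0.12, -0.28, -0.25 and -0.10 in BM Fr.A. In Fr.B/C they were -0.03, 0.37, 0.09 and 0.68 in FL, against -0.17, -0.24, -0.01 and 0.38 in BM. The fetal arrays with the sample in Cy3, replicates 2 and 4, read higher than those in Cy5. Neither difference, of 0.24 ± 0.17 in Fr.A, and of 0.29 ± 0.17 in Fr.B/C, passed (limma, adjusted p = 0.349 and 0.24).

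Within an array, the log2 ratio of each inducible subunit less that of the subunit it replaces shows how unequally a pair changed, and any scaling of the whole array drops out. Psmb9 minus Psmb6 averaged -1.23 ± 0.10 in FL Fr.A and 1.00 ± 0.21 in BM Fr.A (SD, n = 4 each). It averaged -2.03 ± 0.06 in FL Fr.B/C and 0.34 ± 0.09 in BM Fr.B/C. Psmb8 minus Psmb5 averaged -0.88 ± 0.41 in FL Fr.A and 0.85 ± 0.12 in BM Fr.A, and -1.71 ± 0.26 in FL Fr.B/C and 0.25 ± 0.29 in BM Fr.B/C. Psmb10 minus Psmb7 averaged -0.26 ± 0.24 in FL Fr.A and 1.25 ± 0.62 in BM Fr.A, and -0.16 ± 0.29 in FL Fr.B/C and 0.74 ± 0.29 in BM Fr.B/C. For each of the 3 pairs the fetal and adult arrays did not overlap at either stage. The mean of the 5 immunoproteasome members less that of the 39 constitutive ones averaged 0.08 ± 0.10 in FL Fr.A and 1.31 ± 0.20 in BM Fr.A. It averaged -0.17 ± 0.15 in FL Fr.B/C and 0.81 ± 0.18 in BM Fr.B/C, with no overlap between the tissues. These values describe the members and carry no test.

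**Figure D2:**
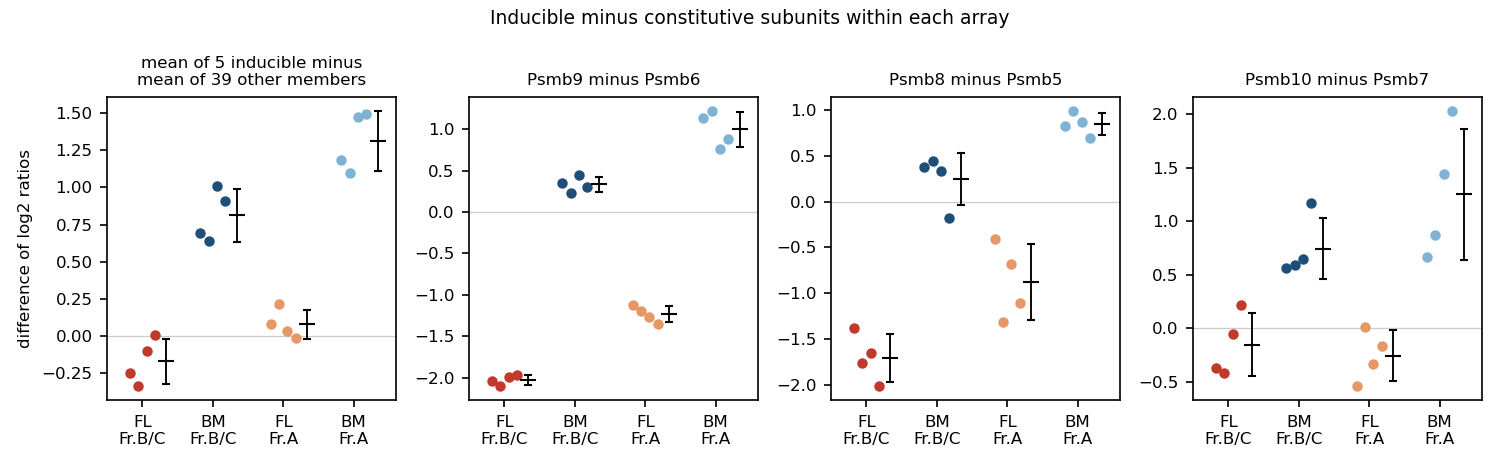
Difference of log2 ratios within each array (vertical axis) between the mean of the 5 immunoproteasome members and that of the 39 constitutive ones, and for the 3 exchanged pairs of catalytic subunits, in the 4 groups. Points are arrays and bars give the mean ± SD (n = 4). In all 4 panels the fetal liver arrays lie below the bone marrow arrays of the same fraction.

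Among the 39 constitutive members, 15 were higher and 0 lower in FL Fr.A than in BM Fr.A, where 12.2% of all genes were higher, and their median log2 difference was 0.30. The arrays of the tissues did not overlap for 13 of the 39, or for 16 of all 44 members, beside 26.2% of all genes. In Fr.B/C only 6 were higher and 2 lower in FL, where 13.9% of all were higher and 14.6% lower. Of all genes 28.5% passed in either direction, so these counts lie near or below the background. The median log2 difference of the 39 was 0.04 in Fr.B/C. There 5 of the 39, or 8 of all 44 members, did not overlap, beside 29.5% of all genes. The test of whether the shift differs between the fractions is given with the interaction.

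Among the alpha subunits, which form the outer rings and the gate, 4 of 7 were higher in FL Fr.A. They were Psma3 by 0.74 ± 0.22, Psma4 by 0.54 ± 0.18, Psma1 and Psma5. Psma3 had log2 ratios of -0.23, -0.62, 0.55 and 0.41 in FL Fr.A, against -0.82, -0.71, -0.69 and -0.64 in BM Fr.A, so that fetal arrays 3 and 4 lay far above arrays 1 and 2. In Fr.B/C Psma7 alone of the alpha subunits was higher in FL, by 0.63 ± 0.19. Of the 7 constitutive beta subunits, Psmb6 and Psmb7 were higher in FL Fr.A and Psmb6 in FL Fr.B/C. On FL Fr.B/C arrays the sample signal was saturated for Psmb3 (3 of 4 arrays), Psmb4 (2) and Psma2 (1). Their FL Fr.B/C values, and the differences that use them, may therefore be too low.

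Of the 6 ATPases of the regulatory particle, which unfold substrates, Psmc5 (0.45 ± 0.11) and Psmc4 (0.40 ± 0.08) were higher in FL Fr.A. In Fr.B/C Psmc5 was higher in FL by 0.32 ± 0.11 and Psmc3 was lower. Psmc3 had log2 ratios of -0.11, -0.04, -1.04 and -0.60 in FL Fr.B/C, against 0.60, 0.70, 0.13 and 0.31 in BM Fr.B/C, a difference of -0.88 ± 0.23 (limma, adjusted p = 0.0091). Arrays 3 and 4 were the lower ones in both tissues, and the groups did not overlap.

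Of the 10 non-ATPase members, Psmd6 (0.51 ± 0.17) and Psmd12 (0.26 ± 0.08) were higher in FL Fr.A. In Fr.B/C Psmd3 was higher in FL, with log2 ratios of 0.01, 0.24, 0.11 and 0.37, against -0.37, -0.51, -0.41 and -0.44 in BM. That difference was 0.61 ± 0.14 (limma, adjusted p = 0.00361). The ubiquitin receptor Psmd4 was lower in FL Fr.B/C, with a log2 difference of -0.57 ± 0.20 at the threshold (limma, adjusted p = 0.0477). Different probes of Psmd2, Psmd12 and Psmd14 disagreed in sign in Fr.B/C, so the fetal shift of these 3 rests on the probe chosen.

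Of the 6 assembly chaperones, which help cores and caps form, Psmg3 (0.48 ± 0.17), Psmd9 (0.39 ± 0.10), Psmg1 (0.34 ± 0.08) and Psmg2 (0.28 ± 0.09) were higher in FL Fr.A. The Fr.A calls of Psmg3 and Psmg2 (limma, adjusted p = 0.0471 and 0.0275) were lost under 22 and 16 of 31 other settings. Psmg3 (0.64 ± 0.17) and Psmg1 (0.38 ± 0.08) were also higher in FL Fr.B/C. The core inhibitor Psmf1 was higher in FL Fr.A by 0.48 ± 0.16 (limma, adjusted p = 0.0305) and not in FL Fr.B/C, at -0.29 ± 0.16. Its log2 ratios were -0.25, -0.02, -0.53 and -0.44 in FL Fr.A, against -0.54, -0.43, -1.07 and -1.13 in BM Fr.A, which overlapped, and its 3 probes ranged from -0.23 to 0.48. The activator Psme3, of the nucleus, had log2 ratios of -0.84 to -0.37 in FL Fr.A, against -0.86 to -0.15 in BM Fr.A, and of -0.70 to -0.29 in FL Fr.B/C, against -0.75 to -0.41 in BM Fr.B/C. The activator Psme4 had log2 ratios of -0.40 to -0.07 in FL Fr.A, against -0.84 to -0.41 in BM Fr.A, and of -0.59 to 0.23 in FL Fr.B/C, against -0.08 to 0.38 in BM Fr.B/C. Neither passed at either stage, with adjusted p-values for Psme3 and Psme4 of 0.813 and 0.219 in Fr.A and of 0.49 and 0.178 in Fr.B/C (limma).

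The counts of constitutive members depend on how the arrays are treated. With arrays 1 and 2, and 3 and 4, averaged, 1 constitutive member remained higher in FL Fr.A (Psmb7, limma, adjusted p = 0.0428) and 1 in FL Fr.B/C (Psmd3, adjusted p = 0.039). In FL Fr.B/C 0 then remained lower, so the calls of Psmc3 and Psmd4 were lost. With median centring in place of loess, 2 were higher in FL Fr.A, and 1 was higher and 1 lower in FL Fr.B/C, while over all genes that setting moved the share of higher among called genes to 22.5% in Fr.A, against 41.2%, and to 20.4% in Fr.B/C, against 48.7%. Leaving out FL Fr.A replicate 4 left 8 constitutive members higher in Fr.A, and leaving out BM Fr.B/C replicate 1 left 3 higher and 1 lower in Fr.B/C.

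**Figure D3:**
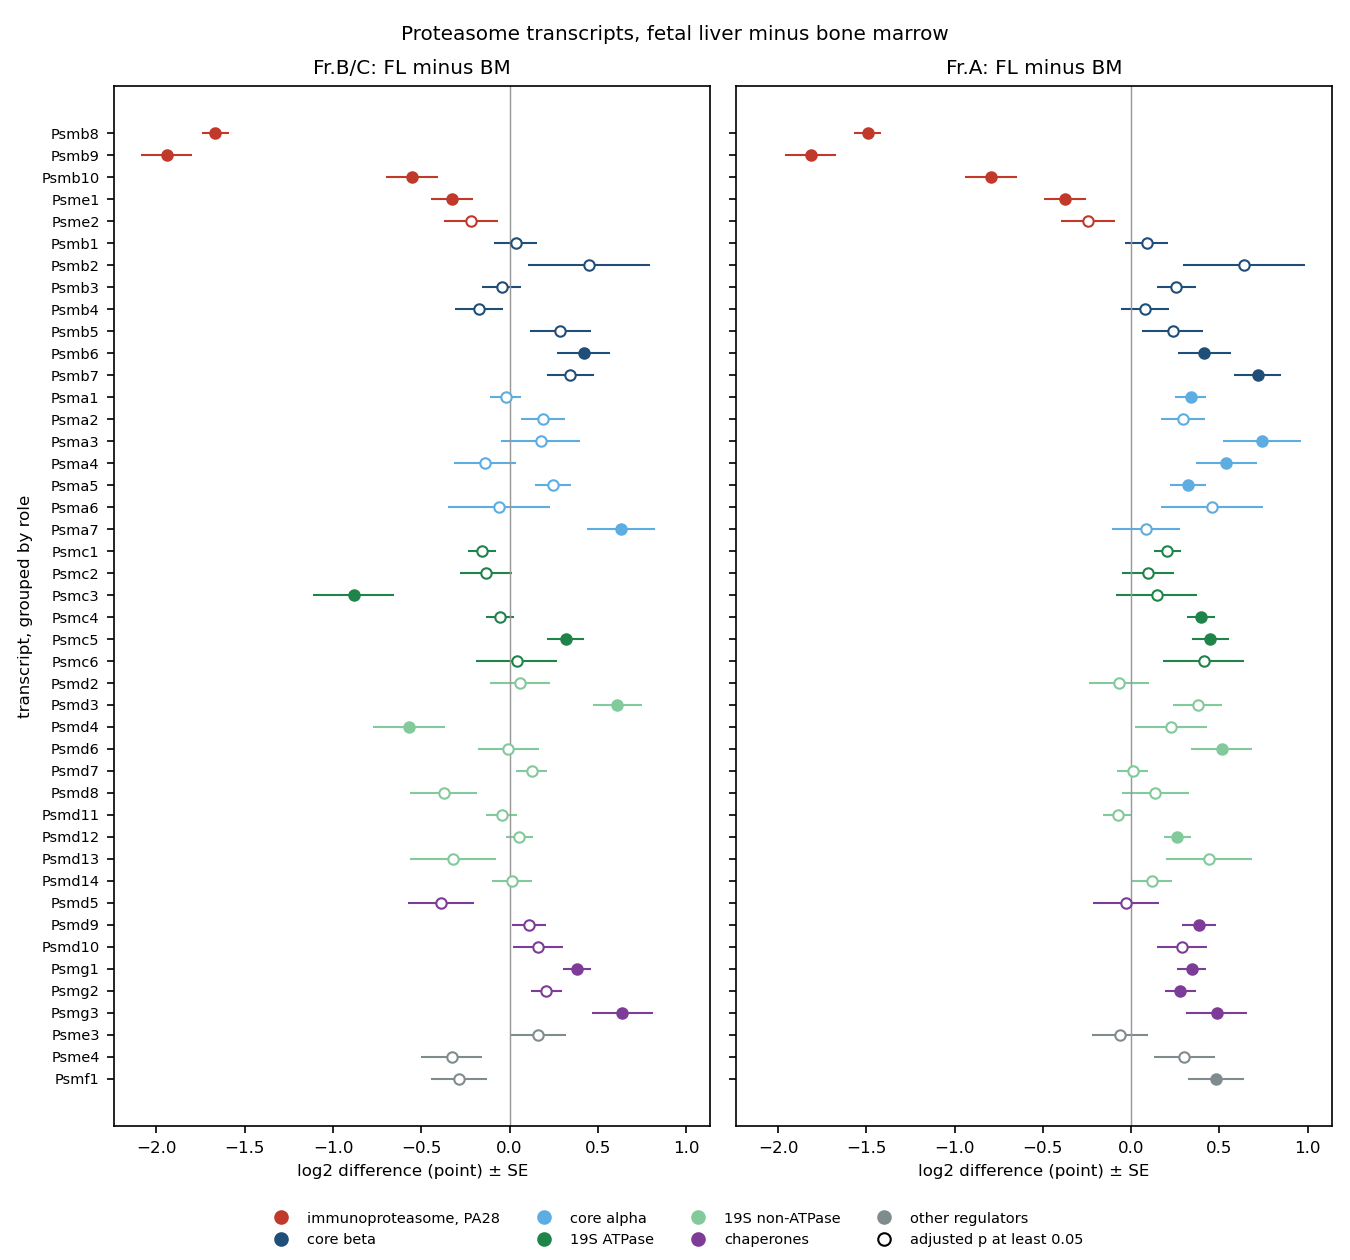
Log2 difference of fetal liver minus bone marrow (horizontal axis, point ± SE) for the 44 tested members at both stages, coloured by role. Filled points passed at an adjusted p under 0.05. Psmb9 and Psmb8 lie at -1.94 and -1.67 in Fr.B/C and at -1.81 and -1.49 in Fr.A, and no other member is below -1.

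Between Fr.A and Fr.B/C in bone marrow, 17 of 39 constitutive proteasome transcripts were higher at the later stage and Psmb8 was lower. Of the 44 members 17 were higher and 1 lower in BM Fr.B/C, where 13.5% of all genes were higher, 18.9% lower and 32.3% passed in either direction. The 17 were all constitutive, and the median log2 difference of the 39 constitutive members was 0.33, beside -0.04 over all genes. In 15 of the 39 the arrays did not overlap, a share to set beside the 29.6% of all genes.

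By role, they comprised 4 of 6 ATPases, 6 of 10 non-ATPase subunits, 4 of 7 beta subunits, 1 of 6 chaperones, 2 of 3 other regulators and 0 of 7 alpha subunits. The largest changes were those of Psmf1 and of Psmd13, a scaffold subunit of the regulatory particle. Psmf1 had log2 ratios of 0.24, 0.16, 0.02 and 0.19 in BM Fr.B/C, against -0.54, -0.43, -1.07 and -1.13 in BM Fr.A, a difference of 0.94 ± 0.16 (limma, adjusted p = 0.00024). Psmd13 had log2 ratios of 0.52, 0.43, 0.41 and 0.27 in BM Fr.B/C, against -0.50, -0.48, -0.56 and -0.60 in BM Fr.A, a difference of 0.94 ± 0.24 (limma, adjusted p = 0.00708). Both were higher on every Fr.B/C array, and the 3 probes of Psmf1 ranged from 0.22 to 0.94.

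Psmc3 (0.83 ± 0.23), Psmd4 (0.74 ± 0.20) and the activator Psme4 (0.73 ± 0.17) followed. Psmc4, an ATPase, had the smallest adjusted p of the members, with log2 ratios of 0.40, 0.30, 0.17 and 0.26 in BM Fr.B/C, against -0.26, -0.38, -0.38 and -0.54 in BM Fr.A (0.67 ± 0.08, limma, adjusted p = 6.93e-06). Of the catalytic subunits, Psmb7 (0.48 ± 0.13) and Psmb6 (0.45 ± 0.15) were higher in BM Fr.B/C, and Psmb5 was not (0.18 ± 0.17). Psmd12 (0.28 ± 0.08), Psmd14 (0.33 ± 0.11) and Psmc1 (0.38) were the smallest of the 17.

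Psmb8 was the only member lower in BM Fr.B/C than in BM Fr.A, with a log2 difference of -0.42 ± 0.08 (limma, adjusted p = 0.000474). Its difference within scan sessions 2, 3 and 4, each holding both fractions, was -0.51, -0.29 and -0.40, and with session as a fixed block its adjusted p was 0.00114. Under median centring its adjusted p was 0.384. Psmb9 (-0.21 ± 0.14), Psme1 (-0.18 ± 0.12), Psme2 (-0.05 ± 0.15) and Psmb10 (-0.02 ± 0.15) did not pass in bone marrow. With arrays 1 and 2, and 3 and 4, averaged, 4 constitutive members remained higher and Psmb8 lower. With scan session as a fixed block, an alternative chosen after seeing the data, 21 were higher and Psmb8 lower.

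In fetal liver fewer members passed between the stages, and Psmb8 was again lower at the later one. Of the 44 members 4 were higher and 2 lower in FL Fr.B/C than in FL Fr.A, where 10.1% of all genes were higher, 12.7% lower and 22.8% passed in either direction. The median log2 difference of the constitutive members was 0.08, beside 0.00 over all genes, and the arrays did not overlap for 2 of the 44, beside 24.1% of all genes. Psmb8 was lower, with a log2 difference of -0.60 ± 0.08 (limma, adjusted p = 2.76e-05), with differences of -0.60 and -0.60 within scan sessions 5 and 6, and had an adjusted p of 0.169 under median centring. That setting left 0 members past the threshold (limma) and moved the share of higher among all called genes to 31.6%, against 44.1%.

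The 4 higher members were Psmb6 (0.46 ± 0.15), Psmb1 (0.38 ± 0.12), Psmd9 (0.29 ± 0.10) and Psmc4 (0.22 ± 0.08), with adjusted p-values from 0.0324 to 0.04998 (limma). As a share of the 44 members they are not above the 10.1% of all genes that were higher. In that order, their calls were lost under 15, 15, 14 and 22 of 32 other settings. A second probe of Psmd9 gave 0.08. Psma4 was lower, with log2 ratios of -0.19, -0.33, -0.84 and -0.86 in FL Fr.B/C, against -0.09, -0.29, 0.27 and 0.17 in FL Fr.A (-0.57 ± 0.18, limma, adjusted p = 0.0275). Its difference was -0.07 within scan session 5, which held arrays 1 and 2, and -1.07 within session 6, which held arrays 3 and 4. Psmd13 likewise had a difference of 0.82 within session 5 and -0.46 within session 6, and did not pass.

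Psmb9 had a log2 difference of -0.34 ± 0.14 between FL Fr.B/C and FL Fr.A that did not pass (limma, adjusted p = 0.116), and an adjusted p of 0.0327 with the replicate number as a block. That block brought the members past the threshold to 10, of which 6 were higher and 4 lower, and without FL Fr.B/C replicate 3 or replicate 4 only 1 was left. Leaving out FL Fr.A replicate 1, 3 or 4 left 3, 3 and 2 members. With arrays 1 and 2, and 3 and 4, averaged, Psmb8 alone remained, with an adjusted p of 0.014 (limma).

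**Figure D4:**
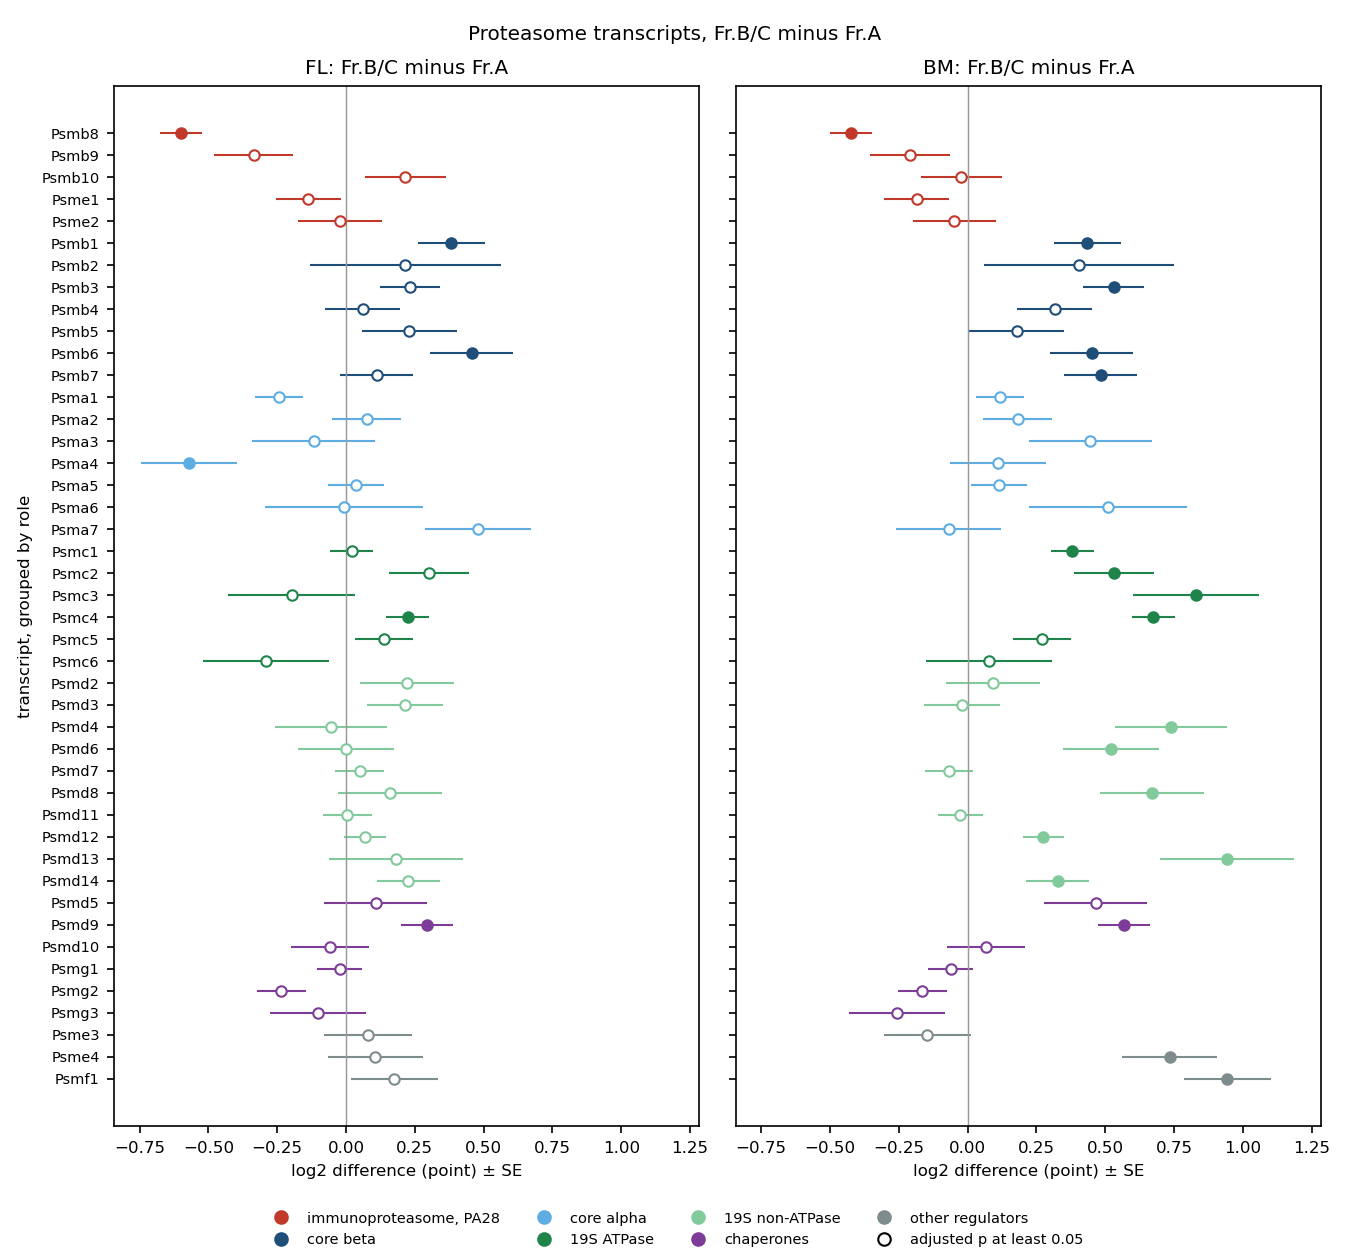
Log2 difference of Fr.B/C minus Fr.A (horizontal axis, point ± SE) for the 44 tested members in fetal liver and in bone marrow, coloured by role. Filled points passed at an adjusted p under 0.05. Psmb8 lies at -0.60 in FL and -0.42 in BM, and most constitutive members lie right of 0 in BM.

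Whether a stage change differed between the tissues was tested as an interaction, the change in fetal liver minus that in bone marrow. Of the 44 members, 0 had a higher and 2 a lower value, where 4.53% of all genes were higher, 2.98% lower and 7.51% passed in either direction. Psmc4 had an interaction of -0.45 ± 0.11 (limma, adjusted p = 0.0212), from a stage change of 0.22 in FL and 0.67 in BM. Its call was lost under 10 of 32 other settings. Psmf1 had an interaction of -0.77 ± 0.22 (limma, adjusted p = 0.0482), from 0.17 in FL and 0.94 in BM, but its 3 probes ranged from -0.77 to 0.02 and the call was lost under 24 of 32 other settings.

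The decrease of Psmb8 was not shown to differ between the tissues, with an interaction of -0.18 ± 0.11 (limma, adjusted p = 0.397), nor were the changes of Psmb9 (-0.13 ± 0.20) and Psmb10 (0.24 ± 0.21). The median interaction of the constitutive members was -0.23, beside 0.04 over all genes, and 29 of 39 were below 0. With the replicate number as a block 9 members passed, 8 of them below 0, and with arrays 1 and 2, and 3 and 4, averaged 0 members passed (limma), where 47 of all genes did. Leaving out BM Fr.A replicate 4, BM Fr.B/C replicate 1 or FL Fr.B/C replicate 3 left 0 members, and leaving out FL Fr.B/C replicate 2 left 4.

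Of 16 genes that trim proteasome products and load them on MHC class I, 6 were lower and 1 higher in FL Fr.A, with a median log2 difference of -0.18, where 17.3% of all genes were lower. In FL Fr.B/C 6 were lower and 2 higher, with a median of -0.19, where 14.6% of all were lower. The other 9 and 8 did not pass. Tap1, the transporter subunit whose promoter window overlaps that of Psmb9, had log2 differences of -1.53 ± 0.16 in Fr.A, and of -1.94 ± 0.16 in Fr.B/C (limma, adjusted p = 3.36e-06 and 2.61e-07). Tap2, its partner, had log2 differences of -1.30 ± 0.14 and -0.72 ± 0.14, and Tapbp, which bridges the transporter to class I molecules, of -1.40 ± 0.17 and -0.94 ± 0.17. B2m, the light chain of class I, had a log2 difference of -1.88 ± 0.13 in Fr.A. It was saturated on all 4 BM Fr.B/C arrays, so its fold in Fr.B/C is not given. The peptidase Thop1 was higher, by 0.38 ± 0.11 in FL Fr.A and 0.52 ± 0.11 in FL Fr.B/C.

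Of 13 tested genes of interferon signalling, 8 were lower and 0 higher in FL Fr.A, with a median log2 difference of -0.32 and beside 17.3% of all genes lower. In FL Fr.B/C 9 were lower and 1 higher, with a median of -0.57 and beside 14.6% of all lower. Irf9, the DNA-binding part of the type I interferon complex, had log2 differences of -1.29 ± 0.12 in Fr.A, and of -2.48 ± 0.12 in Fr.B/C (limma, adjusted p = 8.79e-07 and 4.44e-10). Jak1, a receptor kinase, had log2 differences of -0.88 ± 0.10 and -0.59 ± 0.10, and Irf8 of -0.70 ± 0.08 and -1.81 ± 0.08. Irf1, an activator of Psmb9 and Tap1, had log2 differences of -1.20 ± 0.16 in Fr.A, and of -0.87 ± 0.16 in Fr.B/C. Ifngr1, a subunit of the interferon gamma receptor, was the one higher in FL Fr.B/C, by 0.43 ± 0.11. Between the stages, 8 of the 13 were lower and 1 higher in FL Fr.B/C than in FL Fr.A, and 5 were lower and 0 higher in BM Fr.B/C than in BM Fr.A, beside 12.7% and 18.9% of all genes lower.

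Of 8 tested proteasome-linked genes without a Psm name, 5 were higher and 0 lower in FL Fr.A, and 3 were higher and 0 lower in FL Fr.B/C, beside 12.2% and 13.9% of all genes higher. Pomp, the chaperone that completes core assembly, was higher by 0.63 ± 0.15 in FL Fr.A and 0.60 ± 0.15 in FL Fr.B/C (limma, adjusted p = 0.00595 and 0.00811). Sem1, a small subunit of the regulatory particle, passed in both, but its probe was saturated on 2 FL Fr.A and all 4 FL Fr.B/C arrays, so no difference is given. Ublcp1, a proteasome phosphatase, was higher in FL Fr.A than in BM Fr.A by 0.70 ± 0.08 (limma, adjusted p = 1.15e-05). It was also higher in BM Fr.B/C than in BM Fr.A, by 0.90 ± 0.08. There it was 1 of 8 higher, near the 13.5% of all genes. Of 6 tested genes that control proteasome transcription, 0 were higher and 3 lower in FL Fr.A, and 1 higher and 2 lower in FL Fr.B/C. Of all genes 17.3% and 14.6% were lower there, and 29.5% and 28.5% passed in either direction. Nfe2l1, the factor that restores proteasome genes after inhibition, had a log2 difference of -0.50 ± 0.17 in FL Fr.A against BM Fr.A, and of -0.80 ± 0.17 in BM Fr.B/C against BM Fr.A. Ngly1, the glycanase that processes the Nfe2l1 protein, was higher in FL Fr.B/C than in BM Fr.B/C by 0.95 ± 0.17, and than in FL Fr.A by 1.44 ± 0.17.

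Of 17 tested ubiquitin and shuttle genes, 7 were higher and 0 lower in BM Fr.B/C than in BM Fr.A, beside 13.5% of all genes higher. Ubqln2 (0.94 ± 0.22) and Ubqln1 (0.64 ± 0.12), which carry ubiquitin-tagged proteins to the proteasome, were among them. In FL Fr.A 3 were higher and 0 lower than in BM Fr.A, and in FL Fr.B/C 3 were higher and 3 lower than in BM Fr.B/C, where 29.5% and 28.5% of all genes passed, so these counts lie near the background. Of 6 tested heat shock partners, 0 passed in FL Fr.A against BM Fr.A and 1, Hsp90aa1, was higher in FL Fr.B/C, by 0.45 ± 0.12 (limma, adjusted p = 0.0088).

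Of 8 tested B-lineage markers, 5 were higher and 2 lower (Rag1 and Ptprc) in FL Fr.B/C than in FL Fr.A. In BM Fr.B/C 5 were higher and 1 lower (Rag1) than in BM Fr.A. Over all genes, 10.1% were higher and 12.7% lower in FL Fr.B/C, and 13.5% higher and 18.9% lower in BM Fr.B/C. Between the tissues 2 were lower in FL Fr.A and 4 in FL Fr.B/C, beside 17.3% and 14.6% of all genes, and 0 were higher. The probes of Cd79b and Vpreb1 were saturated on all 4 arrays of BM Fr.B/C and of FL Fr.B/C. Their differences that use these groups, counted here, are therefore uncertain. Cd79a, the signalling chain of the B-cell receptor, was higher in Fr.B/C than in Fr.A by 1.30 ± 0.15 in FL and by 1.97 ± 0.15 in BM, while Pax5 was not well above background on most arrays and was not tested. Markers of other cells also differed between the tissues, where 12.2% of all genes were higher in FL Fr.A and 13.9% in FL Fr.B/C. All 8 erythroid markers were higher in FL Fr.A and 7 of 8 in FL Fr.B/C, with mean log2 ratios of 1.34 to 2.98 and 1.40 to 2.63 in these fetal groups, against 0.02 to 0.16 in BM Fr.A and -0.33 to -0.00 in BM Fr.B/C. Of 6 tested NK cell markers, 4 were lower in FL Fr.A and 2 in FL Fr.B/C, with mean log2 ratios of -0.49 to -0.24 and -1.35 to -1.11 there, against 0.41 to 0.71 in BM Fr.A and -0.59 to -0.44 in BM Fr.B/C. Myeloid markers were lower for 4 of 8 in FL Fr.A, where 1, Csf1r, was higher, and for 3 of 8 in FL Fr.B/C, with means of 2.99 to 3.93 in FL Fr.A and 2.06 to 2.79 in FL Fr.B/C, against 4.07 to 4.88 in BM Fr.A and 3.45 to 3.90 in BM Fr.B/C. T-lineage markers were lower for 3 of 7 at each stage. Of 7 plasmacytoid dendritic cell markers 3 were higher and 2 lower in FL Fr.A, and 0 higher and 3 lower in FL Fr.B/C. Between the stages, some of the NK, plasmacytoid dendritic, T-lineage and myeloid markers were lower in Fr.B/C than in Fr.A, as Psmb8 was. In FL these were 2 of 6 NK, 5 of 7 plasmacytoid dendritic, 4 of 7 T-lineage and 5 of 8 myeloid markers. In BM they were, in the same order, 5 of 6, 4 of 7, 3 of 7 and 2 of 8, with 0 higher in each list. Of all genes 12.7% were lower in FL Fr.B/C and 18.9% in BM Fr.B/C, so the 2 of 8 in BM lies near that share. Of the 8 hepatocyte markers 3 were tested, of which 1 was lower in FL Fr.A and 2 higher in FL Fr.B/C. Of 7 tested macrophage markers 2 were higher and 1 lower in FL Fr.A, and 3 higher and 1 lower in FL Fr.B/C. The part of these cells in the differences above was not tested.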

How the data were processed

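RNA of each sample and of the common reference was hybridised together on 16 2-colour Agilent arrays. The deposited scanner files hold spot intensity and background per dye, with outlier, saturation and above-background flags, and per the file headers came from Feature Extraction 8.5.1.1. The deposited table holds log2 ratios. The submitters' processing notes name limma, and its settings are not given in the sources used here. As an alternative the deposited values were fitted; their log2 ratios correlated with those used here at 0.930 to 0.951 per array.

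Background was corrected by normexp (offset 50) and ratios were normalised by loess within arrays in limma 3.58.1 (R 4.3.3), with control spots at weight 0 and outlier spots dropped. Kept probes were well above background on at least 3 of 4 arrays of a group and usable on at least 12 arrays. Of 41174 probes 27521 were kept, giving 22432 genes or unnamed transcripts. A linear model of group and dye over all 16 arrays (11 residual degrees of freedom) gave differences, with Benjamini-Hochberg adjusted p-values over all of them and a threshold of 0.05. The number of arrays limits the precision. Scripts were tested on simulated data.

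The members and lists were chosen with earlier results of these data known. Named members were the immunoproteasome genes, their counterparts, Psme3, Psme4, Psmf1, and the 4 highest and 4 lowest changes past the threshold in each comparison. Replicate numbers are taken to mark the sort that gave both fractions. Same-numbered fractions deviated together after removing dye (r from 0.249 to 0.518, all above 0.1), although FL replicates 1 and 3 correlated more closely with another number (0.271 and 0.425) and Fr.B/C arrays of different animals with a shared number reached 0.279 to 0.484, so values with the replicate number as a block stand beside stage results where they differ. Arrays 1 and 2, and 3 and 4, of a group correlated at 0.926 to 0.981, against 0.907 to 0.942 for other pairs, so a fit with these sets averaged was run. With group and dye in the model, the estimated correlation within these sets was 0.567. The main fit treats the 4 arrays of a group as independent. The alternatives were other background, normalisation, filter, probe, dye, block and empirical Bayes settings and leaving out each array. Promoter windows came from RefSeq.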

Additional observations from a re-analysis of the deposited data

Results flagged for a closer look

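In 7 of the 175 sets of 4 arrays (4%), the gap between 1 array and the nearest other, as a share of the group's range, passed Dixon's critical value for 4 values. Chance passes that value in about 1 in 20 groups. Psmd11 in FL Fr.B/C had 3 usable arrays and was not tested. Psma2 read 0.15 on FL Fr.A replicate 3, with the others from -0.26 to -0.20, and -0.58 on BM Fr.B/C replicate 2, with the others from -0.14 to -0.13. Psmb8 read 0.33 on BM Fr.B/C replicate 3, with the others from 0.20 to 0.21, and its calls between fetal liver and bone marrow held without that array. On FL Fr.A replicate 2, Psmc4 read 0.094 (others -0.02), Psmc5 0.060 (others 0.31 to 0.34) and Psmc6 -1.10 (others -0.95 to -0.92). Psme3 read -0.84 on FL Fr.A replicate 1, with the others from -0.44 to -0.37. These are log2 ratios of sample over reference.

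Of the 44 members, 2 passed the interaction test given above, where 7.51% of all genes passed in either direction, so the count is not above the background. The interaction was -0.45 for Psmc4 and -0.77 for Psmf1, and these calls were lost under 10 and 24 of 32 other settings.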

How the results depend on the processing

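Psmb8 and Psmb9 stayed lower in fetal liver and past the threshold at both stages under all 31 alternatives, with highest adjusted p-values of 0.000819 and 0.00355 in Fr.A and 0.000441 and 0.002 in Fr.B/C (limma). The counts of members past the threshold were less stable. In Fr.A, fetal liver against bone marrow, 19 passed, against 4 under median centring, with array sets averaged, with Cy5 alone and with Cy3 alone, 7 with array sets as a random block and 10 with scaling between arrays. In Fr.B/C 12 passed, against 4 under median centring, 3 with array sets averaged, as a random block and with Cy3 alone, and 2 with Cy5 alone. Between the stages of bone marrow 18 passed, against 5 under median centring and with array sets averaged, 10 with sets as a random block, 2 with Cy5 alone and 3 with Cy3 alone. Between the stages of fetal liver 6 passed, against 0 under median centring, 1 with array sets averaged, as a random block and with Cy3 alone, 2 with processed signals, the deposited table and Cy5 alone, 3 with scaling between arrays and with no dye term, and 10 with the replicate block. For the interaction 2 passed, against 0 with processed signals, median centring, the deposited table, sets averaged, sets as a random block, and either dye alone, 1 with no background subtraction, scaling between arrays and the mean of all probes of a gene, 7 and 8 with scan session as a random and as a fixed block, and 9 with the replicate block. Leaving out each array gave 11 to 19, 7 to 12, 15 to 19, 1 to 7 and 0 to 4 members, in the order of comparisons above. With the replicate block 24 and 16 members passed in Fr.A and Fr.B/C between the tissues, where the number joins different animals, and 21 in bone marrow.

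Signs turned only for changes that had not passed. Psmb5 in Fr.A, fetal liver against bone marrow, was -0.16 with Cy5 alone. In bone marrow between the stages Psmb10 was 0.13 under median centring and 0.075 with scaling, and Psme2 was 0.11, 0.025 and, with the mean of its probes, 0.026. Leaving out each array gave -0.17 to 0.096 for Psmb10 and -0.17 to 0.083 for Psme2. In fetal liver between the stages Psme1 was 0.042 and Psme2 0.18 under median centring, and Psme2 was 0.0068 with the mean of its probes and 0.013 with Cy3 alone. Leaving out each array gave -0.11 to 0.065 for Psme2 and -0.0063 to 0.21 for Psmb7 there, and -0.25 to 0.025 for the interaction of Psmb9. The cause was not tested. Over all genes, 6617, 6387, 7254, 5113 and 1685 passed, against 2503, 1966, 3374, 1822 and 47 with array sets averaged, and 4218, 4384, 4269, 2721 and 445 under median centring. With Cy5 alone 2312, 1678, 2752, 1713 and 34 passed, and with Cy3 alone 2140, 1551, 2759, 1303 and 11. With the replicate block 3667 passed for the interaction.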
